A study of Mus musculus with 6 samples.

Results

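The 10 chemokine genes described here, Ccl2, Ccl5, Ccl7, Ccl20, Cxcl1, Cxcl2, Cxcl5, Cxcl10, Cxcl16 and Cx3cl1, were taken by gene symbol from a table of 53465 genes, and each matched 1 row. They are chemokines commonly listed in the secretome of senescent cells. RNA-seq of polyadenylated RNA had been done on 4T1, a mouse mammary carcinoma line, in a variant resistant to axitinib, an inhibitor of VEGF receptor kinases. Per the series' design text, that variant came from lesions found after surgery in mice dosed at 100 mg/kg/day, and it was then cultured for over 2 months. All cells in both groups were grown with 0.5 µM axitinib. The groups are fractions of that culture sorted on C12FDG, a dye released by β-galactosidase, with 3 libraries of the high fraction (SM positive) and 3 of the low fraction (SM negative). The libraries held 18733801 to 26533528 counts, and no library stood apart in its share of mitochondrial counts (1.54% to 1.90%). There was no untreated or drug-sensitive group, and the labels do not tie replicates to separate cultures or sorting runs. The p-values therefore measure only how far the 6 libraries scatter, and that scatter may be technical.

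Chemokines are small secreted proteins that draw leukocytes along a gradient by binding G protein-coupled receptors on those cells. CC and CXC chemokines are named after the spacing of their N-terminal cysteines, and Cx3cl1 is the CX3C member. Senescent cells can secrete many of them, largely through the transcription factors NF-κB and C/EBPβ, and in tumours they attract neutrophils, monocytes, T cells and NK cells. Cxcl16 and Cx3cl1 differ from the rest in that they are made as membrane proteins and are released by metalloproteases.

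RefSeq promoter windows (GRCm38.p6) were held for 5 of the 10 genes, Ccl20, Cxcl1, Cxcl2, Cxcl10 and Cx3cl1. Those of Cxcl1 and Cxcl2, neighbouring genes with very unlike levels here, and of Cxcl10 and Ccl20, are printed 5′ to 3′ as they lie before the annotated start. Capitals mark matches to the NF-κB consensus (kB), to the interferon-response core (GAAA, 2 free bases, GAAA) or to the AP-1 core TGANTCA, searched on both strands.
Cxcl1 (chr5:90890995-90891240, plus strand): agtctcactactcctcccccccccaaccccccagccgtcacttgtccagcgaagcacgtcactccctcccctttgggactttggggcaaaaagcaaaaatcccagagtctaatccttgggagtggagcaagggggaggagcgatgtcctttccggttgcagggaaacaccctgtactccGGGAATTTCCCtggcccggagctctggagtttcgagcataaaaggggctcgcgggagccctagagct
Cxcl2 (chr5:90903649-90903870, plus strand): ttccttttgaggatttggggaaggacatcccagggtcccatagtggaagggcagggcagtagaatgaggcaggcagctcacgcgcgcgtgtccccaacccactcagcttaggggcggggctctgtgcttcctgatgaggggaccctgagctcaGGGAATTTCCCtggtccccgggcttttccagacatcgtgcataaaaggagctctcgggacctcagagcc
Cxcl10 (chr5:92348890-92349139, minus strand): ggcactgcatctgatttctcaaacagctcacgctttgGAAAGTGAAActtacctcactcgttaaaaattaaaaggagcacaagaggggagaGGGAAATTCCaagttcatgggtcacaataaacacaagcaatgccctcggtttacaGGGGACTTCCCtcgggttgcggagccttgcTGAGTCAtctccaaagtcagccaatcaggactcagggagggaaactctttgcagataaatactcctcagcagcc
Ccl20 (chr1:83116516-83116765, plus strand): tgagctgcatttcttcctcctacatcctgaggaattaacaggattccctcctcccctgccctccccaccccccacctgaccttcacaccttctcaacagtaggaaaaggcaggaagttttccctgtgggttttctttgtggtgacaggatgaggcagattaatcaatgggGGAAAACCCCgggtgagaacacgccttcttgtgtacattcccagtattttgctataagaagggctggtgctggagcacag

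In the 250 bases before the RefSeq start, Cxcl1 and Cxcl2 each held 1 kB run, the same 11 letters GGGAATTTCCC, 71 to 61 bases before the start of Cxcl1 and 97 to 87 bases before that of Cxcl2. Cxcl10 held 2 separate kB runs, 1 interferon-response core and 1 AP-1 core, and Ccl20 held 1 kB run. The window of Cx3cl1 held none of these letters, but 171 of its 250 bases lie inside the GENCODE gene and only 79 before it. Among 32851 windows of the same length, 7.25% held a kB match, 2.98% the interferon-response core and 6.75% the AP-1 core. A match describes the letters and does not show that a factor bound there.

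Of the 10 chemokines, 7 passed the filter on low counts, and each of these had at least 60 counts in every library. No member passed the test between fractions in the fit without pairing (edgeR quasi-likelihood F test, adjusted p under 0.05 over 14038 genes, a share of 1.35% of all genes tested), although 4 had an unadjusted p under 0.05. DESeq2 called 1 member, Ccl5, and limma-voom called 0. Over all 14038 genes tested, 1913 had an unadjusted p under 0.05 in the same edgeR fit. Of these 14038 genes, DESeq2 called 334 and limma-voom 173. With the replicate number as a block, which compares each SM positive library with the SM negative library of the same number, Ccl5 and Cxcl16 were lower and Cx3cl1 and Cxcl5 were higher in SM positive cells. These 4 of 7 members stand against 14.1% of all genes called in that fit, 8.52% higher and 5.6% lower. The changes were small, in the fit without the block from 1.52-fold lower for Ccl5 to 1.16-fold higher for Cx3cl1 and Cxcl5. With 4 log2 changes below 0 and 3 above, the median of the 7 was that of Cxcl10, -0.23, beside -0.00085 over all genes tested. Summed over the 10 genes, the scaled level was 188.2 to 199.9 CPM (counts scaled to a common library total, with TMM factors) in SM negative and 181.8 to 190.7 CPM in SM positive libraries, so the fractions overlapped.

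**Figure D1:**
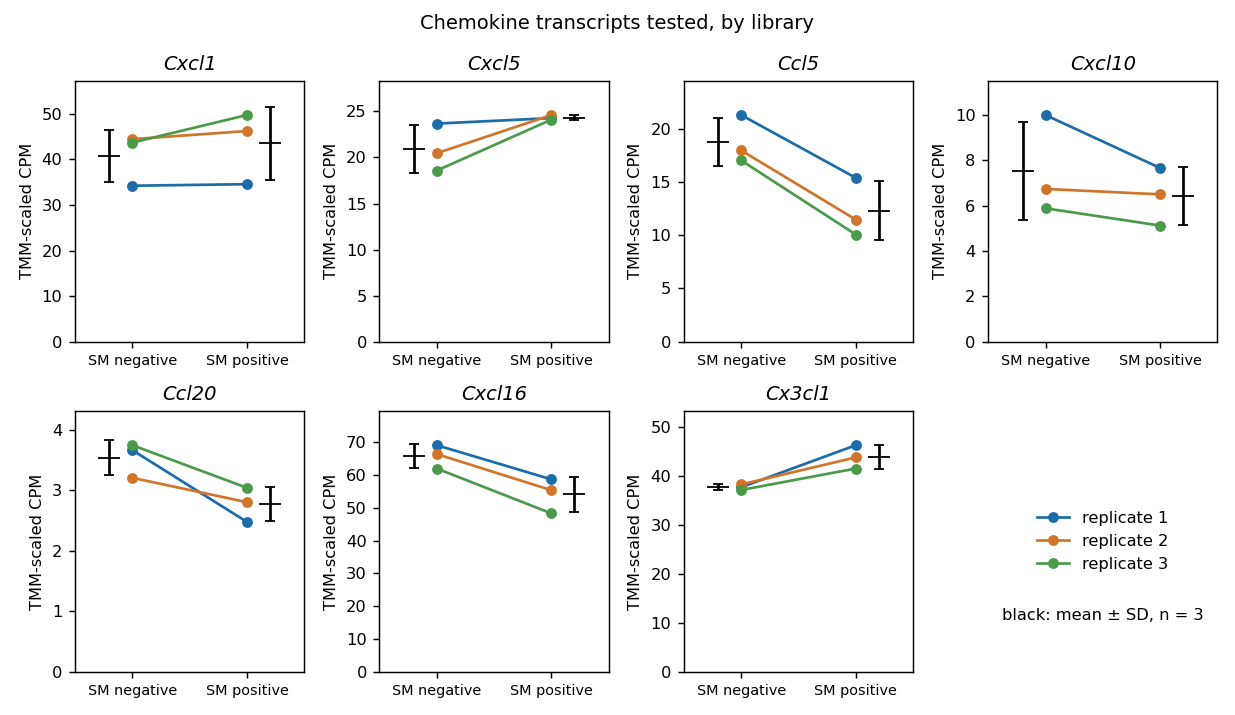
TMM-scaled CPM (y axis, from 0) of the 7 chemokines tested in each library, with SM negative left and SM positive right; lines join libraries with the same replicate number, and black bars are mean ± SD over 3 libraries. Lines run downward for Ccl5, Cxcl10, Ccl20 and Cxcl16 and upward for Cxcl5 and Cx3cl1 in all 3 pairs, while those of Cxcl1 are nearly flat for replicates 1 and 2.

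Per kilobase of exon, Cxcl1 and Cxcl16 were the most abundant members. In SM negative cells, Cxcl16 stood at 21.8 ± 1.19, Cxcl1 at 21.8 ± 3.04 and Ccl5 at 19.6 ± 2.34 CPM per kb (mean ± SD, n = 3), and these 3 neighbours overlapped. Cxcl5 followed at 11.2 ± 1.38 and Cx3cl1 at 9.57 ± 0.145 CPM per kb, which did not overlap with each other. Cxcl10 (3.34 ± 0.964) and Ccl20 (2.49 ± 0.204 CPM per kb) were the lowest of the 7 and overlapped. In SM positive cells the order was Cxcl1 (23.2 ± 4.24), Cxcl16 (17.9 ± 1.75), Cxcl5 (13.1 ± 0.136), Ccl5 (12.8 ± 2.88), Cx3cl1 (11.1 ± 0.605), Cxcl10 (2.85 ± 0.564) and Ccl20 (1.95 ± 0.199 CPM per kb). There, Cxcl1 overlapped with Cxcl16, and Ccl5 with Cxcl16, Cxcl5 and Cx3cl1. The place of Ccl5 among the members was 2, 3 and 3 in SM negative and 3, 4 and 5 in SM positive replicates 1, 2 and 3.

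Cxcl1, Cxcl5 and Cxcl2 encode ligands of CXCR2, the receptor that brings in neutrophils. Cxcl1 (ENSMUSG00000029380.11, chromosome 5, 90891241 to 90893115, plus strand) stood at 34.2, 44.4 and 43.7 CPM in SM negative and 34.6, 46.2 and 49.7 CPM in SM positive replicates 1, 2 and 3. Replicate 1 was the lowest library of both fractions, and the fractions overlapped. The log2 change of Cxcl1 was 0.092 ± 0.148 (SE; adjusted p = 0.848), and 0.087 ± 0.0524 with the replicate block (adjusted p = 0.307). The 95% interval of the blocked change ran from -0.022 to 0.20 on the log2 scale. Without a block, its sign turned when SM negative replicate 1 (-0.024) or SM positive replicate 3 (-0.014) was left out.

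Cxcl5 (chromosome 5, 90759360 to 90761624, plus strand) stood at 23.7, 20.5 and 18.6 CPM in SM negative and 24.3, 24.6 and 24.1 CPM in SM positive replicates 1, 2 and 3. The SM positive libraries were nearly equal and all above the SM negative ones, of which replicate 1 came closest. The log2 change was 0.22 ± 0.0957 (SE; adjusted p = 0.357), and 0.21 ± 0.0707 with the block (adjusted p = 0.0471). By pair it was 0.036, 0.27 and 0.38 on the log2 scale. The blocked call ended without pair 2 (adjusted p = 0.178) or pair 3 (0.361), with limma-voom (0.0554) and with DESeq2 (0.43), both blocked too.

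Cxcl2 (chromosome 5, 90903871 to 90905938, plus strand), the neighbour of Cxcl1 that shares its kB letters, had 2, 0 and 1 counts in SM negative and 2, 0 and 0 counts in SM positive replicates 1, 2 and 3. Cxcl1 had 832 to 990 counts in the same libraries. Of the 31-base stretches of Cxcl2 transcripts, 7.59% also occur in Cxcl3, so counts could be split between these genes. Cxcl3, another CXCR2 ligand, stood at 2.11 ± 0.776 CPM in SM negative and 2.06 ± 0.343 CPM in SM positive cells (log2 change -0.041, adjusted p = 0.965). Cxcl2 was therefore too low to judge.

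Ccl5, also called RANTES, attracts T cells, monocytes and NK cells, CCR1 being one of its receptors, and is induced by NF-κB and interferon-regulatory factors. Ccl5 (ENSMUSG00000035042.2, chromosome 11, 83525778 to 83530518, minus strand) stood at 21.3, 18.0 and 17.1 CPM in SM negative and 15.4, 11.5 and 10.1 CPM in SM positive replicates 1, 2 and 3. Replicate 1 was the highest library of both fractions, and every SM positive library lay below every SM negative one. The log2 change was -0.60 ± 0.153 (SE; 95% interval -0.94 to -0.26; adjusted p = 0.109), a level 1.52-fold lower. With the block Ccl5 fell by 0.61 ± 0.079 on the log2 scale (95% interval -0.77 to -0.44, adjusted p = 2.13e-05), lower in 3 of 3 pairs. Without a block, it also passed when SM positive replicate 1 was left out (adjusted p = 0.0162), with DESeq2 (0.0119) and with no filter (1.09e-05), and over the 12 alternatives without a block its adjusted p reached 0.299. In bulk RNA, fewer cells with a transcript and less of it per cell cannot be told apart.

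Cxcl10 encodes the interferon-induced ligand of CXCR3, a receptor of activated T cells and NK cells. Cxcl10 (chromosome 5, 92346638 to 92348889, minus strand) stood at 9.99, 6.73 and 5.88 CPM in SM negative and 7.65, 6.49 and 5.12 CPM in SM positive replicates 1, 2 and 3. As for Ccl5, replicate 1 was the highest of each fraction, but here the fractions overlapped. The log2 change was -0.23 ± 0.212 (SE; adjusted p = 0.706), and -0.23 ± 0.112 with the block (95% interval -0.46 to 0.0061, adjusted p = 0.196). Without SM negative replicate 1 and with no block, the change was 0.038. Art3, which overlaps Cxcl10 on the opposite strand, had at most 1 count in any library.

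Ccl20 encodes the ligand of CCR6, which guides dendritic cells and Th17 cells. Ccl20 (chromosome 1, 83116766 to 83119167, plus strand) stood at 3.66, 3.21 and 3.74 CPM in SM negative and 2.48, 2.80 and 3.04 CPM in SM positive replicates 1, 2 and 3, with 60 to 92 counts per library. All 3 SM positive libraries lay below the SM negative ones. The log2 change was -0.36 ± 0.164 (SE; adjusted p = 0.373), and -0.36 ± 0.165 with the block (95% interval -0.71 to -0.016, adjusted p = 0.16). Ccl20 passed under none of the alternatives run.

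The log2 changes of the membrane-bound chemokines had opposite signs, and neither passed in the fit without the block. Cxcl16, the ligand of CXCR6 on T cells and NKT cells and also a scavenger receptor for oxidised lipoprotein (ENSMUSG00000018920.11, chromosome 11, 70453983 to 70459984, minus strand), stood at 69.0, 66.3 and 61.9 CPM in SM negative and 58.6, 55.3 and 48.3 CPM in SM positive replicates 1, 2 and 3. The fractions did not overlap, and each SM positive library lay below its SM negative partner. The log2 change was -0.28 ± 0.0793 (SE; 95% interval -0.46 to -0.11; adjusted p = 0.149). With the block Cxcl16 fell by 0.28 ± 0.046 on the log2 scale (adjusted p = 0.000276), to 0.822 of the SM negative level. Over the 12 alternatives without a block, Cxcl16 passed in 1, with no filter (adjusted p = 0.0135), and its adjusted p reached 0.347. Zmynd15, which overlaps Cxcl16 on the opposite strand, stood at 1.05 ± 0.336 CPM in SM negative and 0.765 ± 0.115 CPM in SM positive cells.

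Cx3cl1, also called fractalkine, acts as an adhesion molecule on the cell surface and, once cut off, attracts monocytes and NK cells through CX3CR1. Cx3cl1 (ENSMUSG00000031778.13, chromosome 8, 94772009 to 94782427, plus strand) stood at 37.6, 38.2 and 37.1 CPM in SM negative and 46.2, 43.7 and 41.4 CPM in SM positive replicates 1, 2 and 3. The SM negative libraries were tightly grouped and all below the SM positive ones. The log2 change was 0.22 ± 0.0668 (SE; 95% interval 0.072 to 0.37; adjusted p = 0.173). With the block Cx3cl1 rose by 0.22 ± 0.0519 on the log2 scale (adjusted p = 0.00677), higher in 3 of 3 pairs. That call ended without pair 1 (adjusted p = 0.176) and with blocked DESeq2 (0.196).

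**Figure D2:**
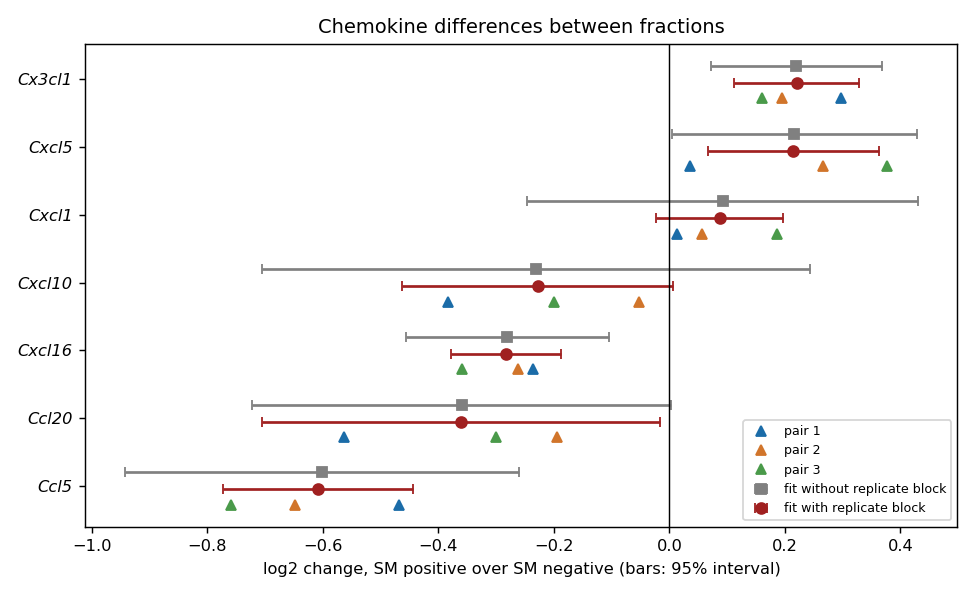
Log2 change, SM positive over SM negative (x axis), of the 7 chemokines tested. Squares are the fit without a replicate block and circles the fit with it, each with its 95% interval, and triangles are single pairs. Intervals narrow with the block for all 7, least for Ccl20, and also for Cxcl1 and Cxcl10, which did not pass. Those of Ccl5 and Cxcl16 lie left of 0, and those of Cx3cl1 and Cxcl5 lie right of it.

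All 7 chemokines tested kept 1 direction in all 3 pairs, beside 46.6% of all genes tested. The fractions did not overlap for 5 of the 7, Ccl5, Ccl20, Cxcl16, Cxcl5 and Cx3cl1, beside 19.9% of all genes tested. The block narrowed the standard error of Ccl5 from 0.153 to 0.079 and that of Cxcl1 from 0.148 to 0.0524, while that of Ccl20 was 0.164 without and 0.165 with it. Ccl5 and Cxcl16 passed in all 9 settings that had the block, Cx3cl1 in 7 and Cxcl5 in 5.

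Ccl2 and Ccl7, neighbouring genes on chromosome 11 whose products recruit monocytes through CCR2, were too low to judge. Ccl2 (82035571 to 82037453, plus strand) had 8, 1 and 4 counts in SM negative and 1, 1 and 0 counts in SM positive replicates 1, 2 and 3. Most of the SM negative counts were in replicate 1. Summed over each fraction, that is 13 against 2 counts, a ratio of 6.78 for SM negative over SM positive with an exact Poisson 95% interval of 1.54 to 61.9, which covers counting error only. In the fit with no filter the Ccl2 log2 change was -2.51 (adjusted p = 0.295). Ccl7 (82045712 to 82047525, plus strand) had 0, 2 and 0 counts in SM negative and 1, 0 and 0 counts in SM positive replicates 1, 2 and 3. A count of 0 allows a level of up to 3 counts, or 0.113 to 0.16 CPM depending on the library. With Cxcl2, 3 of the 10 members were thus below the filter, and no difference between fractions over replicates could be judged for them; the counting interval of Ccl2 excluded 1, those of Ccl7 and Cxcl2 did not.

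The other chemokine ligands were mostly below the filter in these cells. Of 30 rows for 28 other ligand genes, 26 failed the filter and 14 had 0 counts in all 6 libraries. In the whole table of 53465 rows, 39427 failed the filter and 27592 had 0 counts in all libraries. Ccl25, a ligand of CCR9 known from thymus and gut, stood at 4.43 ± 0.467 CPM in SM negative and 4.05 ± 0.15 CPM in SM positive cells, and Cxcl3 followed. The platelet chemokine gene Ppbp and the CXCR3 ligand gene Cxcl11 were the remaining tested ones, at 1.16 ± 0.15 and 0.82 ± 0.269 CPM in SM negative cells. None of the 4 passed the test with or without the block, with DESeq2 or with limma-voom, and none had an unadjusted p under 0.05 in either edgeR fit. Cxcl12, the CXCR4 ligand made by stromal cells, had 0 counts in all libraries. Cxcl9, a CXCR3 ligand induced by interferon-γ, had at most 1.

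**Figure D3:**
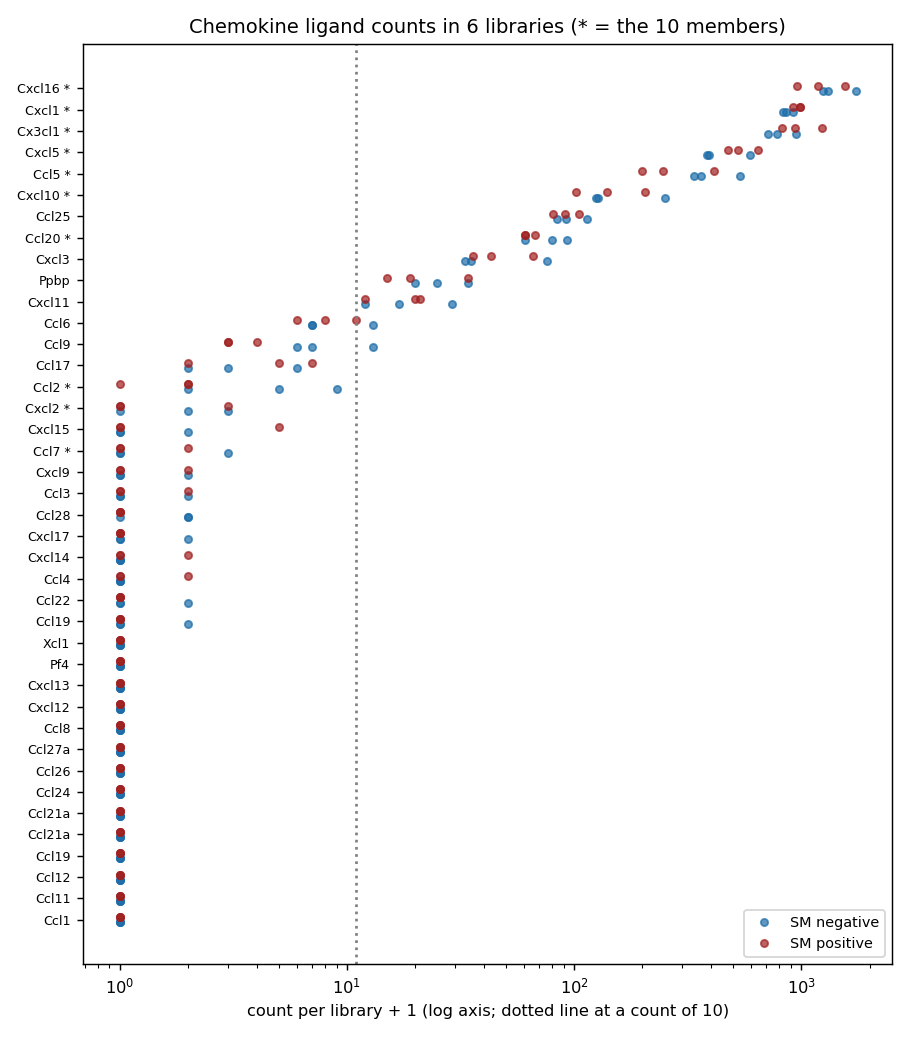
Counts per library plus 1 (log x axis) of the 40 chemokine ligand rows, 1 point for each of 6 libraries, blue for SM negative and red for SM positive; asterisks mark the 10 members and the dotted line a count of 10. Cxcl16, Cxcl1, Cx3cl1, Cxcl5, Ccl5 and Cxcl10 lie at the top with over 100 counts in every library, and Ccl2, Cxcl2 and Ccl7 lie below the line in all 6.

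The receptors of these ligands were close to undetected in the tumour cells. Of 22 chemokine receptor genes, 21 failed the filter and 6 had 0 counts in all libraries, beside 39427 and 27592 of all 53465 rows. Ccr1, a receptor of Ccl5, and Ccr2, the receptor of Ccl2 and Ccl7, had 0 counts in all 6. Cxcr2 had 1 to 5 counts per library, Cxcr3 0 to 7, Cxcr6 1 to 2, and Ccr6 and Cx3cr1 0 to 1. The exception was Ackr3, an atypical receptor that takes up Cxcl12 and Cxcl11 and does not signal through G proteins. Ackr3 stood at 40.9 ± 4.07 CPM in SM negative and 44.7 ± 5.09 CPM in SM positive cells (log2 change 0.13, adjusted p = 0.65, and adjusted p = 0.106 with the block).

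Among 16 genes for shedding and cleavage of chemokines, 12 were tested. None passed without the block (4 had an unadjusted p under 0.05, DESeq2 called 1 and limma-voom 0), and 4 rose and 3 fell with it, beside 8.52% of all genes tested that rose and 5.6% that fell in that fit. Of all 14038 genes tested, 1913 had an unadjusted p under 0.05 without the block, DESeq2 called 334 and limma-voom 173. The list's median log2 change was 0.013. Adam10 and Adam17, the sheddases of Cxcl16 and Cx3cl1, were among the 4 that rose with the block. Adam10 stood at 163.8, 170.2 and 151.2 CPM in SM negative and 185.5, 183.3 and 179.8 CPM in SM positive replicates 1, 2 and 3, with no overlap (log2 change 0.18 ± 0.0415 SE with the block, adjusted p = 0.00624, and 0.209 without it). Adam17 stood at 87.0, 94.6 and 89.3 against 103.3, 100.1 and 98.3 CPM, also with no overlap (log2 change 0.16 ± 0.0442 SE with the block, adjusted p = 0.0205, and 0.25 without it). The others that rose with the block were Timp2, a metalloprotease inhibitor (log2 change 0.19, adjusted p = 0.00227), and Mmp14, a membrane metalloprotease that cleaves chemokines (0.12, adjusted p = 0.0387). Adam8, a leukocyte-type sheddase, fell by 0.43 ± 0.0543 (adjusted p = 1.32e-05), the gelatinase gene Mmp9 by 0.16 (adjusted p = 0.0446) and the lysosomal protease gene Ctsl, highest of the list at 864.7 ± 47.4 CPM in SM negative cells, by 0.14 (adjusted p = 0.0243).

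Chemokine messengers are short-lived, and 9 genes listed for their decay and stabilisation were all tested. The list includes Nfkbiz, which encodes a regulator of transcription and not a decay factor, and which passed in neither fit. None passed without the block (1 had an unadjusted p under 0.05, DESeq2 called 1 and limma-voom 0). Among all 14038 genes tested these numbers were 1913, 334 and 173. With the block Zfp36l1, a protein that binds AU-rich elements and promotes decay, rose. Its level was 89.7 ± 4.99 CPM in SM negative and 109.9 ± 9.42 CPM in SM positive cells (blocked log2 change 0.29 ± 0.0422 SE, adjusted p = 8.01e-05, and 0.0928 without the block). This 1 call among 9 genes is near the 14.1% of all genes called with the block and is not a result about the list. Zfp36 itself, tristetraprolin, stood at 50.9 CPM in SM negative and 46.0 CPM in SM positive cells (adjusted p = 0.0842 with the block). The most abundant of the list were Zfp36l2 and Hnrnpd, at 327.8 ± 18.1 and 229.8 ± 10.5 CPM in SM negative cells, and neither passed with or without the block.

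Of 18 genes listed as transcription factors and regulators of chemokine genes, 2 rose and 0 fell without the block, and 4 rose and 1 fell with it. Of the 18, limma-voom called 1 and DESeq2 2. The list includes Nfkbia, which encodes an inhibitor of NF-κB and not a driver, and which passed in neither fit. Over all genes tested, 1.35% were called without the block and 14.1% with it. Of these 14038 genes, limma-voom called 173 and DESeq2 334. The median log2 change was 0.056. The 2 belong to interferon signalling. Irf7, which switches on interferon genes and Ccl5, stood at 12.5, 12.8 and 13.6 CPM in SM negative and 24.2, 18.8 and 21.6 CPM in SM positive replicates 1, 2 and 3, with no overlap (log2 change 0.74 ± 0.105 SE, adjusted p = 0.0113). Stat2, a subunit of the interferon-activated factor ISGF3, stood at 42.8 ± 0.629 CPM in SM negative and rose to 52.1 ± 0.676 CPM in SM positive cells (log2 change 0.28 ± 0.0583 SE, adjusted p = 0.0451). Irf9, Irf3 and Irf1 of the same list had log2 changes of 0.20, 0.026 and -0.097 (adjusted p = 0.379, 0.922 and 0.684). With the block their adjusted p was 0.0529, 0.837 and 0.135. The interferon-inducible chemokines Ccl5 and Cxcl10 had log2 changes below 0 in the same libraries (-0.60 and -0.23). Without the block neither chemokine passed (adjusted p = 0.109 and 0.706), and the fractions overlapped for Cxcl10. With the block Ccl5 passed (adjusted p = 2.13e-05) and Cxcl10 did not (0.196). A link between these chemokines and Irf7, Stat2, Irf9, Irf3 or Irf1 was not tested.

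The NF-κB subunit genes did not pass in either fit. Nfkb1 stood at 185.2 ± 6.22 CPM in SM negative and 179.2 ± 11.5 CPM in SM positive cells (log2 change -0.047, adjusted p = 0.804, and 0.496 with the block), and Rela at 87.6 ± 2.55 and 84.4 ± 7.11 CPM (log2 change -0.053, adjusted p = 0.803, and 0.482 with the block). The AP-1 genes Jun and Fos differed more among replicates than between fractions. Jun stood at 125, 168.9 and 196.1 CPM in SM negative and 162.2, 204.8 and 234.6 CPM in SM positive replicates 1, 2 and 3, higher in 3 of 3 pairs while the fractions overlapped (log2 change 0.30, adjusted p = 3.37e-05 with the block and 0.612 without it). Fos likewise had a log2 change of 0.44 (adjusted p = 0.000223 with the block and 0.813 without it), and Junb fell by 0.19 with the block (adjusted p = 0.0279, and 0.297 without it).

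**Figure D4:**
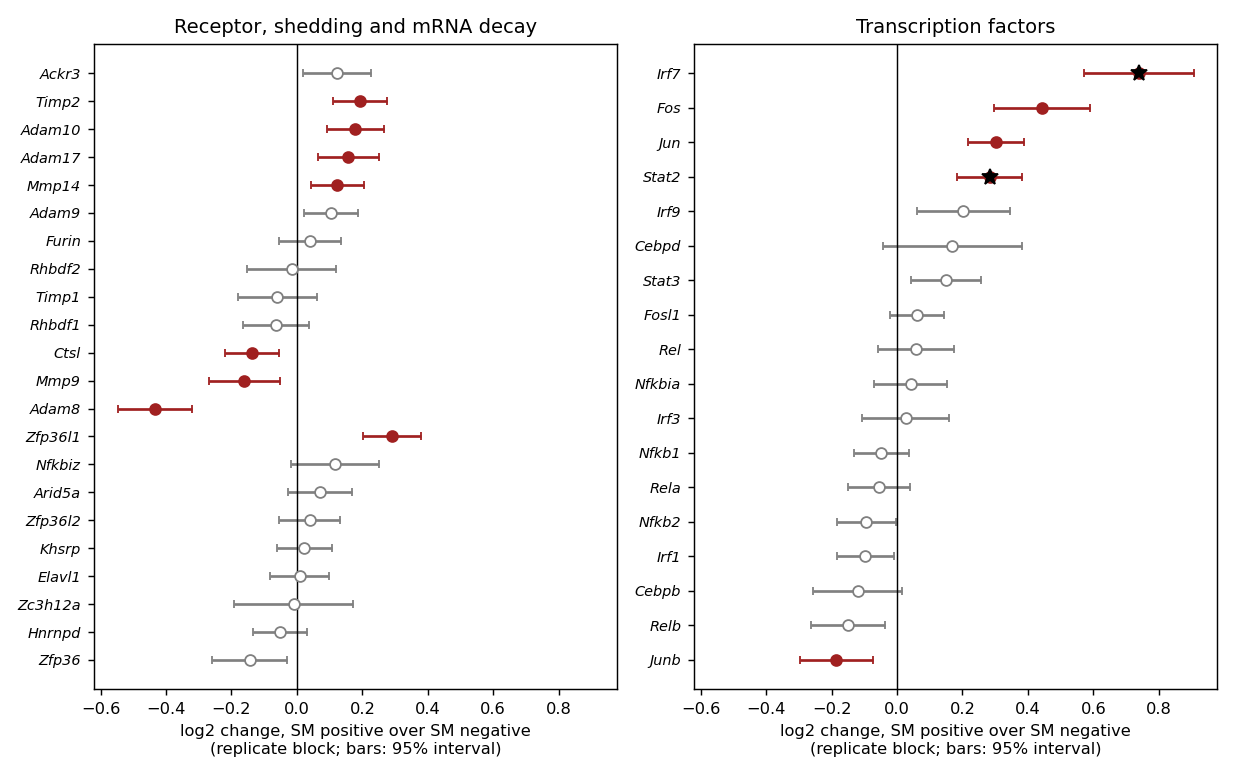
Log2 change, SM positive over SM negative, in the fit with the replicate block (x axis, bars are 95% intervals) for the tested genes of the receptor, shedding and mRNA decay lists (left, the last including the transcription regulator Nfkbiz) and transcription factors (right, including the NF-κB inhibitor gene Nfkbia). Filled points passed an adjusted p of 0.05 with the block and stars also passed without it; Irf7 and Stat2 carry the stars, and Adam8 lies farthest to the left.

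The epithelial identity of the cells was clear from their markers, all 12 of which were tested. Their summed level was 4754 to 4998 CPM in SM negative and 4512 to 4821 CPM in SM positive libraries, led by Krt7 and Krt18, and none passed without the block (3 had an unadjusted p under 0.05, and DESeq2 and limma-voom called 0). For all 14038 genes tested, 1913 had an unadjusted p under 0.05 without the block, DESeq2 called 334 and limma-voom 173. With the block Epcam, Cldn4 and Krt19 fell (log2 change -0.16, -0.16 and -0.88, with adjusted p = 0.0147, 0.00727 and 0.0263), 3 of 12 markers beside 5.6% of all genes tested that fell in that fit. The markers were uneven in level, and Krt19 was low, with 19 to 47 counts per library and 1.71 ± 0.445 CPM in SM negative cells. Of 19 immune cell markers, 17 failed the filter and 8, Adgre1, Cd3e and Tyrobp among them, had 0 counts in all libraries, while Ptprc (CD45) had at most 1 count. Among all 53465 rows, 39427 failed the filter and 27592 had 0 counts in all libraries. The summed immune marker level was 15.2 to 16.1 CPM in SM negative and 12.2 to 14.8 CPM in SM positive libraries and came mainly from Cd14 and Cd68, the only ones tested. Cd68, a lysosomal membrane gene, stood at 6.74 ± 1.1 and 4.90 ± 0.721 CPM and fell with the block (log2 change -0.46, adjusted p = 0.0148, and 0.233 without it). This marker moved in the same direction as Ccl5 and Cxcl16; its part in their difference was not tested. Fibroblast and pericyte markers summed to 4.69 to 5.45 CPM in SM negative and 6.12 to 8.51 CPM in SM positive libraries, with Pdgfra higher with the block (log2 change 0.49, adjusted p = 0.0423, and 0.246 without it), 9 of 12 below the filter and Col3a1, Thy1 and Lum at 0 in all libraries; their part in the higher Cx3cl1 and Cxcl5 was not tested. All 9 endothelial markers failed the filter, with a summed level of 0.514 to 1.12 CPM.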

How the data were processed

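Expected counts per gene were deposited by the authors for 6 libraries; they need not be whole (13.5% to 14.4% of the values were not) and were rounded here. Per the submitters' processing notes, FastQC 0.11.5, STAR 2.6.0a and RSEM 1.3.1 were used with GRCm38, with no roles given. Annotation release and strand setting for counting: not given in the sources used here. Antisense reads may be included. Symbols and coordinates (1-based) come from GENCODE M21 (GRCm38), which matched 99.8% of identifiers.

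Genes passing edgeR's filterByExpr (14038) were scaled by TMM and tested with edgeR 4.0.16 (R 4.3.3), robust quasi-likelihood, with Benjamini-Hochberg adjustment over all of them and a threshold of 0.05. A member that failed the filter was called too low to judge. SE is the log2 change over the root of F, and levels per kb use the union of exons. DESeq2 1.42.0, limma-voom 3.58.1, other scalings, other filters and leaving out libraries were the alternatives. The scripts were tested on simulated data with changes larger than those of the tested members, which does not show how well smaller changes are found. Deviations from the fraction means, compared by Pearson correlation over genes, gave 0.22, 0.28 and 0.196 for same-numbered libraries and at most -0.0435 otherwise. Within a fraction the deviations cancel out, so positive values for same-numbered libraries make the others negative on average. Those negative values are therefore not separate evidence of pairing. All 3 exceed 0.1, the minimum for treating numbers as pairs, and blocked values are printed beside the results they change. No libraries agreed within sampling noise (chi-square per gene 6.32 to 18.1).

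The 10 members, the lists and the tests were chosen with earlier results of these data known. Named beside the members were, from each other list, genes past the threshold in either fit, the most abundant tested ones, the members' receptors, and Adam10 and Adam17. Cxcl12, Cxcl9, Zfp36, Nfkbiz, Nfkbia, Rela, Irf1, Irf3, Irf9, Ppbp and Cxcl11 were named outside these rules, with their values seen. The same holds for the markers Ptprc, Adgre1, Cd3e, Tyrobp, Col3a1, Thy1 and Lum. In the lists of receptors and of transcription factors, 1 gene each is not reported here.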

Additional observations from a re-analysis of the deposited data

How the results depend on the processing

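Pairing decided most calls. With the replicate block, 1982 genes and 4 of the 7 tested chemokines passed, against 190 and 0 without it. Without a block, no filter gave 663 genes and 2 chemokines (Ccl5 and Cxcl16), DESeq2 334 genes and 1 chemokine, and leaving out single libraries 25 to 123 genes and 0 to 1 chemokine. With the block, leaving out a pair gave 705, 1793 and 886 genes and 3 chemokines each time. Among blocked fits chosen after seeing the data, DESeq2 gave 616 genes and 2 chemokines, limma-voom 1978 and 3, RLE 1975 and 4, library totals 1961 and 4, and no filter 2270 and 4. Of the 21 alternatives, log2 changes turned sign for Cxcl1, which ran from -0.024 to 0.24 over the fits without a single library, below 0 without SM negative replicate 1 and, at -0.014, when SM positive replicate 3 was left out, and for Cxcl10, which ran from -0.39 to 0.038, above 0 without SM negative replicate 1, none of them called; the other 5 chemokines kept their direction in all 21. The cause was not tested. Members with few counts (Ccl2, Ccl7, Cxcl2) are limited by depth.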
